A study of Mus musculus with 20 samples.

Results

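The Sm core proteins of small nuclear ribonucleoproteins (snRNPs) are encoded in the mouse by Snrpb, Snrpd1, Snrpd2, Snrpd3, Snrpe, Snrpf, Snrpg and, in neurons above all, Snrpn. The 8 genes were taken from the deposited expression table by symbol, a family chosen with earlier results of these data known although no measured value enters the rule, and they are 8 of its 45700 genes. All 8 passed the filter that kept 15247 genes for testing, a mean of at least 1 FPKM (fragments scaled to transcript length and library size) over the 20 libraries.

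The libraries were made from whole brains of a severe mouse model of spinal muscular atrophy (SMA), the "Taiwanese" strain on an FVB background, and of phenotypically normal littermates. SMA mice lacked murine Smn on both alleles and carried the human SMN2 transgene in 2 copies on one allele. The control littermates kept 1 functional murine Smn allele and carried the same transgene, so that reduced Smn dosage and human SMN2 were present in both genotypes. Total cytoplasmic RNA (all sucrose gradient fractions pooled) and polysomal RNA (polysome fractions pooled) were sequenced from each genotype at the early-symptomatic stage, postnatal day 5, and at the late-symptomatic stage, postnatal day 7. Each of the 4 groups at day 5 held 2 libraries and each of the 4 groups at day 7 held 3. Between 23630 and 28070 genes had a value above 0 in a library, and because FPKM values carry no read totals, the depth behind each value is unknown and no counting interval was computed.

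Sm proteins form a ring around a uridine-rich site in the small nuclear RNAs (snRNAs) U1, U2, U4 and U5 of the spliceosome, the machine that removes introns, and around the U11, U12 and U4atac RNAs of its minor form. The ring is built in the cytoplasm from the pairs B/D3 and D1/D2 and the complex of E, F and G. The SMN complex loads it onto each snRNA, after which the particle returns to the nucleus. SMN is the protein that is short in SMA, and Sm proteins are its best-known clients, so the amount of their mRNA, and of their mRNA on ribosomes, is the supply side of that reaction. The related LSm proteins form rings on U6 snRNA and on mRNAs undergoing decay.

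Smn1, the gene disrupted in SMA mice, did not separate the genotypes. At day 5 it was 9.71 and 8.92 FPKM in control total RNA and 9.55 and 10.1 FPKM in SMA total RNA. At day 7 it was 13.6, 14.1 and 16.7 FPKM in control total RNA and 11.9, 12.7 and 17.5 FPKM in SMA total RNA. The values of the genotypes overlapped, and a value summed over all exons of a gene does not test a label where reads of a disrupted allele or of the human transgene can still be assigned to it. The brain label was met by neuron markers, whose summed level over 6 genes was between 1116 and 2809 FPKM in every library. One of them, Tubb3, is listed at 0 in both early control polysomal libraries and between 562 and 1051 FPKM in every other library. Replicates were treated as separate mice, which the sample titles do not state. Because whole brain was sampled, fewer cells of a type and less RNA per cell cannot be told apart in any of the values that follow.

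Snrpb and Snrpn encode the closely related proteins SmB and SmN, and the first 120 coding bases of each show how their reads can be told apart although the proteins are alike. Both are printed 5′ to 3′ as transcribed, from GENCODE M21 transcripts on the minus strand of GRCm38, within chr2:130177050-130179236 for Snrpb and chr7:59987447-59988604 for Snrpn, spans that include introns. Capitals mark the bases at which they differ.
Snrpb: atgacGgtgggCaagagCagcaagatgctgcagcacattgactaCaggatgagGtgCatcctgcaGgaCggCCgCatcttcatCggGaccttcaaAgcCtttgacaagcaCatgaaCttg
Snrpn: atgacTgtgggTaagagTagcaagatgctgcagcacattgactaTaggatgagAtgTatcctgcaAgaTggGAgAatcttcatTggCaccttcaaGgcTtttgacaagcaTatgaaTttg
Of the 120 positions, 17 differed, and 16 of the 17 were at the last position of a codon. Over the 693 aligned coding bases the sequences were 80.5% identical, the longest identical run was 32 bases, and no stretch of 100 bases, the length of 1 read, was shared between the Snrpb transcript searched (1161 nt, 1 of 4 annotated) and the transcripts of any other annotated gene.

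The other members were less cleanly separable. For each gene the transcript with the longest coding sequence was searched. For Snrpf, 78.3% of the 100-base stretches of its transcript also occurred, on either strand, in another annotated gene, mainly the overlapping gene Ccdc38 on the opposite strand, so its values are the least certain of the 8. The library kit keeps the strand, but no strand setting is given for the alignment or quantification, so reads of Snrpf and Ccdc38, and of Snrpd3 and the overlapping gene Gucd1 on the opposite strand, may not have been told apart. The share was 19.3% for Snrpe, 18.7% for Snrpn, 13.8% for Snrpg, 7.12% for Snrpd2, 2.15% for Snrpd3 and 1.45% for Snrpd1. Snrpn shares a bicistronic transcription unit with Snurf, and the table also splits off the overlapping gene Gm38393. Snurf was listed at 1862 to 3238 FPKM, above every Sm gene, and how the software divided reads between Snrpn and Snurf was not tested.

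The genes lie on chromosomes 1, 2, 6, 7, 10 and 18 of GRCm38 and are not a cluster. In GENCODE M21 they occupy chr2:130171414-130179403 (Snrpb), chr7:59982495-60140219 (Snrpn), chr18:10617775-10642079 (Snrpd1), chr7:19149722-19153542 (Snrpd2), chr10:75517551-75537381 (Snrpd3), chr1:133603871-133610291 (Snrpe), chr10:93583029-93589706 (Snrpf) and chr6:86371304-86379328 (Snrpg). Their longest annotated transcripts are short, from 669 nt for Snrpe and 858 nt for Snrpd1 to 1711 nt for Snrpb, 2076 nt for Snrpn and 3036 nt for Snrpd3. When tested genes were ordered by this length and divided into 5 classes of equal size, 5 of the 8 members fell in the shortest class (99 to 1525 nt).

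Among the members, levels per length spread over more than an order of magnitude. The mean over the 20 libraries was 299 FPKM for Snrpn, 291 for Snrpg, 242 for Snrpd2, 216 for Snrpe, 94.7 for Snrpd1, 68.7 for Snrpb, 21.3 for Snrpf and 21.0 for Snrpd3. In day 5 control total RNA, the order was Snrpd2 and Snrpg (ranges 273 to 277 and 272 to 289 FPKM, overlapping), then Snrpn, Snrpe, Snrpd1 and Snrpb, and last Snrpf and Snrpd3 (18.0 to 19.4 and 17.1 to 19.4 FPKM, overlapping). In day 7 control total RNA the ranges of Snrpg and Snrpn (315 to 402 and 288 to 319 FPKM) overlapped at the top, and those of Snrpe and Snrpd2 (202 to 240 and 163 to 211 FPKM) overlapped below them. The most variable member was Snrpd2, whose highest library was 3.50 times its lowest, and the steadiest was Snrpn, at 1.81 times.

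**Figure D1:**
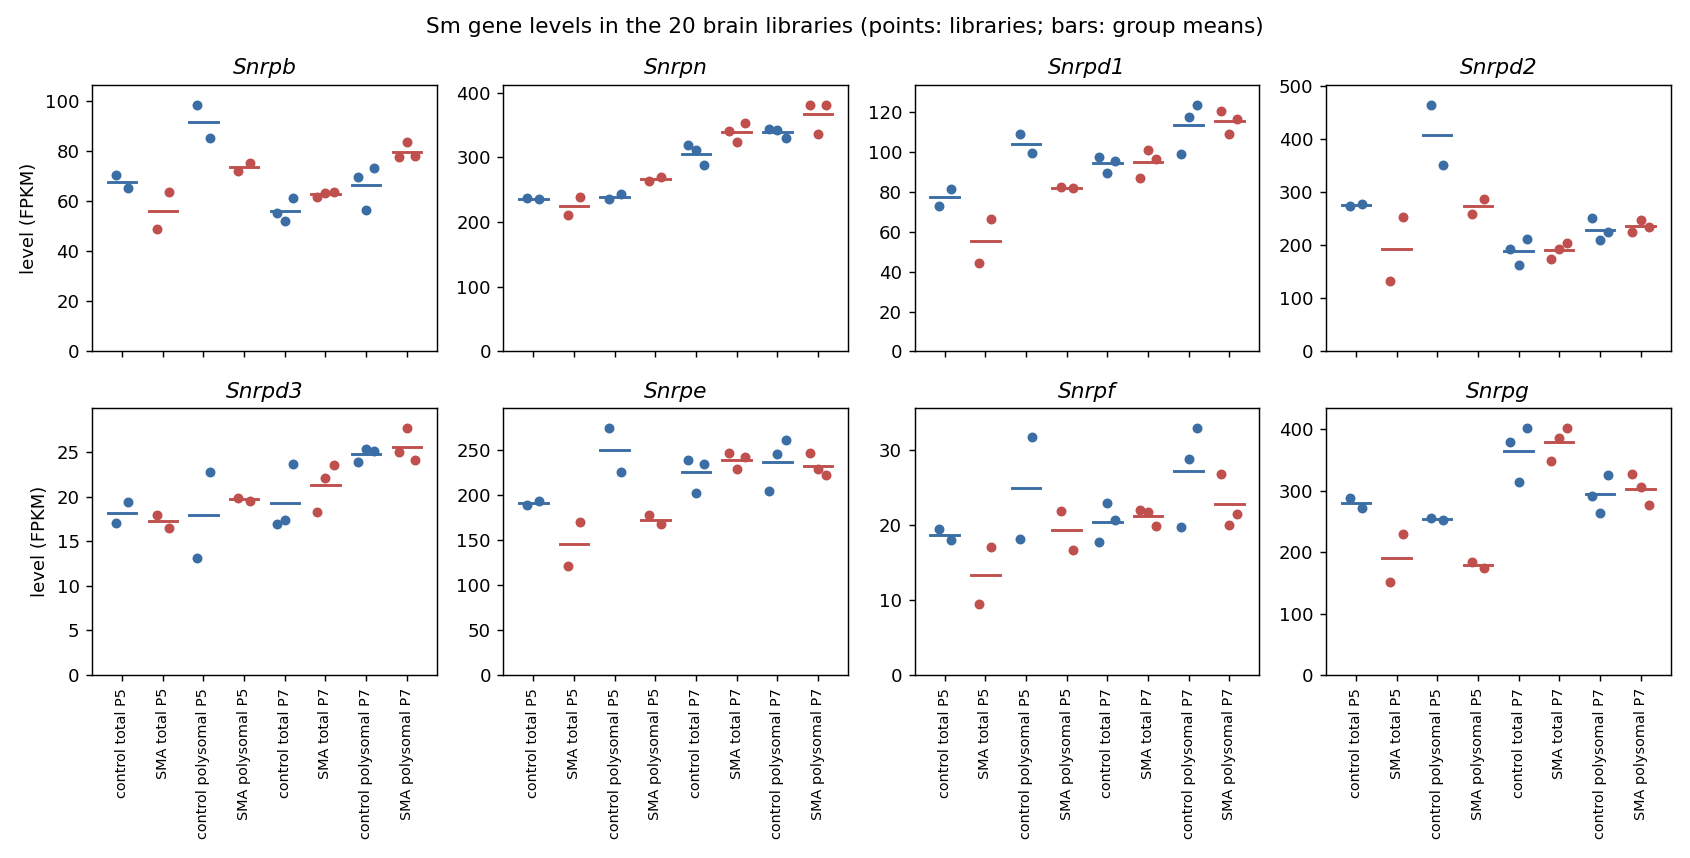
Level of each Sm gene in FPKM (vertical axes, starting at 0) in the 8 groups, with a point for each library and a bar at the group mean, control in blue and SMA in red. At day 5, the lower point of the SMA total group belongs to replicate 1 for 7 of the 8 genes, and Snrpn is the member with the smallest ratio of highest to lowest library, 1.81.

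The first question was whether SMA brains differed from control brains in Sm mRNA at the early-symptomatic stage. In total RNA, all 8 members had a log2 change below 0, as 48.0% of all tested genes did. None passed the limma test at an unadjusted p of 0.05, where 8.25% of tested genes were called and 3.89% were called lower, and none passed after adjustment, where 0.164% were. In 1 model over all 20 libraries, which pools the spread of the 8 groups, 5 of the 8 were called, together with 3013 in place of 1258 of all tested genes. The median log2 change of the members was -0.46, against 0.01 for all tested genes. For 6 of the 8 members both SMA libraries were below both control libraries, a pattern shown in the same direction by 22.5% of tested genes.

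The largest differences were in genes of the D1/D2 pair and of the E, F, G complex, none of them called. Snrpg was 289 and 272 FPKM in controls, compared with 151 and 230 FPKM in SMA total RNA, a log2 change of -0.59 ± 0.25 (SE, limma, adjusted p = 0.551). Snrpd2 was 273 and 277 FPKM in controls, compared with 133 and 253 FPKM in SMA (-0.59 ± 0.37). Snrpd1 was 72.9 and 81.8 FPKM in controls, compared with 44.3 and 66.5 FPKM in SMA (-0.51 ± 0.24). In each of them the SMA library labelled replicate 1 was far below the other, which sat closer to the nearest control than to its own replicate.

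Snrpe was 190 and 194 FPKM in controls, compared with 122 and 170 FPKM in SMA total RNA (-0.42 ± 0.20). Snrpf was 19.4 and 18.0 FPKM in controls, compared with 9.50 and 17.0 FPKM in SMA (-0.55 ± 0.34). Snrpb was 70.5 and 65.0 FPKM in controls, compared with 48.9 and 63.5 FPKM in SMA (-0.28 ± 0.16). The groups did not overlap for any of these genes, and again SMA replicate 1 was the lowest library.

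Snrpd3 and Snrpn stood apart. Snrpd3 was 17.1 and 19.4 FPKM in controls, compared with 18.0 and 16.5 FPKM in SMA total RNA (-0.08 ± 0.11). Snrpn was 237 and 235 FPKM in controls, compared with 211 and 239 FPKM in SMA, the smallest difference of the 8 (-0.07 ± 0.10). The genotypes overlapped for both genes.

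A single library set the size of the early difference in total RNA. In SMA replicate 1 the median log2 deviation of the members from their means over the 4 total RNA libraries of day 5 was -0.50, and 7 of the 8 lay below. In that library the median of the shortest class of all tested genes was -0.18 and that of the longest class 0.20. Its summed level of 5 erythroid markers was 1740 FPKM, compared with 3415 FPKM in SMA replicate 2 and 2494 and 2781 FPKM in controls. Without SMA replicate 1 the median change of the members was -0.14, and without SMA replicate 2 it was -0.73. Either fit holds 1 SMA library, and the count of called members changed without SMA replicate 2. Over all tested genes the change followed transcript length, with a median of -0.17 in the shortest class and 0.19 in the longest, and the part of length in the members' values was not tested beyond a fit with a length correction, which left their median at -0.25.

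In polysomal RNA at day 5, 6 of the 8 members were again lower in SMA. Snrpb, Snrpd1, Snrpe and Snrpg fell at the unadjusted threshold, 4 of 8, where 12.5% of all tested genes were called and 6.82% were called lower. None of the 8 passed after adjustment, where 0.649% of tested genes did, and the smallest adjusted p was 0.346. The median log2 change was -0.33, against -0.01 for all tested genes.

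Snrpg, the smallest of the Sm proteins, was 256 and 252 FPKM in controls, compared with 183 and 173 FPKM in SMA polysomal RNA, a log2 change of -0.51 ± 0.08 (SE, limma, adjusted p = 0.346). Its partner Snrpe was 275 and 226 FPKM in controls, compared with 178 and 168 FPKM in SMA (-0.53 ± 0.14, limma, adjusted p = 0.386). Both SMA libraries were below both control libraries for either gene, and the SMA replicates lay closer to each other than to either control. Snrpf, the third member of that complex, was 18.1 and 31.7 FPKM in controls, compared with 21.9 and 16.7 FPKM in SMA, with the genotypes overlapping (-0.32 ± 0.35).

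Of the D1/D2 pair, Snrpd1 was 109 and 99.7 FPKM in controls, compared with 82.3 and 81.9 FPKM in SMA polysomal RNA (-0.34 ± 0.07, limma, adjusted p = 0.385). Snrpd2 was 465 and 352 FPKM in controls, compared with 260 and 288 FPKM in SMA, the largest change of the 8 (-0.57 ± 0.19), and missed the unadjusted threshold (limma, adjusted p = 0.401). The groups did not overlap for either gene, nor for the 3 other called genes, and 26.6% of tested genes were lower in this way. The wide gap between the control replicates went with the larger standard error of Snrpd2.

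Snrpb fell on polysomes, with 98.5 and 85.0 FPKM in controls, compared with 72.2 and 75.0 FPKM in SMA (-0.31 ± 0.10, limma, adjusted p = 0.395). Its relative Snrpn went the other way, with 235 and 243 FPKM in controls, compared with 264 and 270 FPKM in SMA (0.16 ± 0.09, limma, adjusted p = 0.464). For Snrpn both SMA libraries were above both control libraries, as for 23.9% of tested genes. Snrpd3, the partner of SmB in the ring, was 13.1 and 22.8 FPKM in controls, compared with 19.9 and 19.5 FPKM in SMA (0.19 ± 0.32), overlapping.

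All 4 calls were lost when either SMA library was left out, which leaves 1 SMA library in the fit, while the changes themselves stayed at -0.55 to -0.47 for Snrpg, -0.67 to -0.39 for Snrpe, -0.41 to -0.28 for Snrpd1 and -0.42 to -0.21 for Snrpb over the 4 fits that left out a library, and the call for Snrpb was also lost without control replicate 1. Length moved with this comparison too: the shortest class of tested genes had a median change of -0.11, with 13.4% called lower, and the longest class had a median of 0.16. With a length correction the median of the members was -0.17, and 2 of the 4 calls were kept, Snrpe at -0.39 and Snrpg at -0.33.

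**Figure D2:**
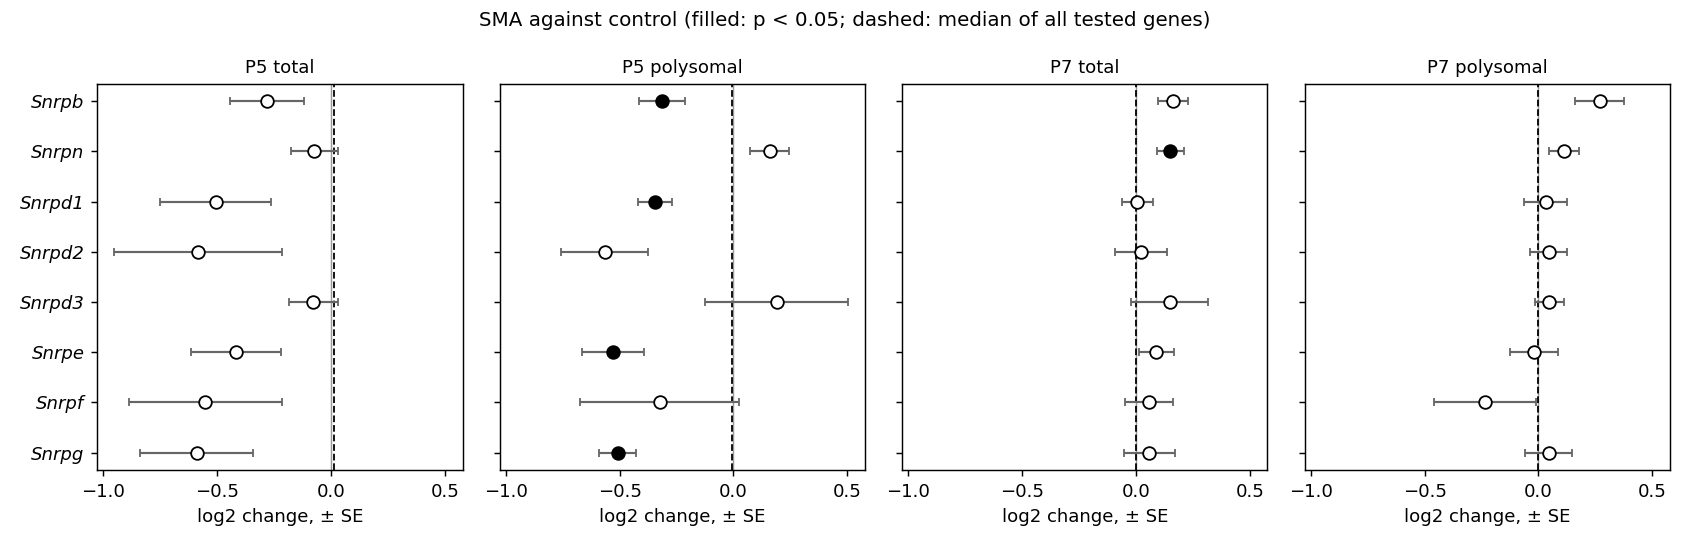
log2 change of each Sm gene in SMA against control, with its standard error (horizontal axes), in the 4 combinations of stage and RNA fraction. Filled points passed the unadjusted limma threshold of 0.05 and the dashed line is the median of all tested genes. The points lie left of the line at day 5, except Snrpn and Snrpd3 on polysomes, and close to it or right of it at day 7, except Snrpf on polysomes, which lies left of it at -0.23.

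**Figure D3:**
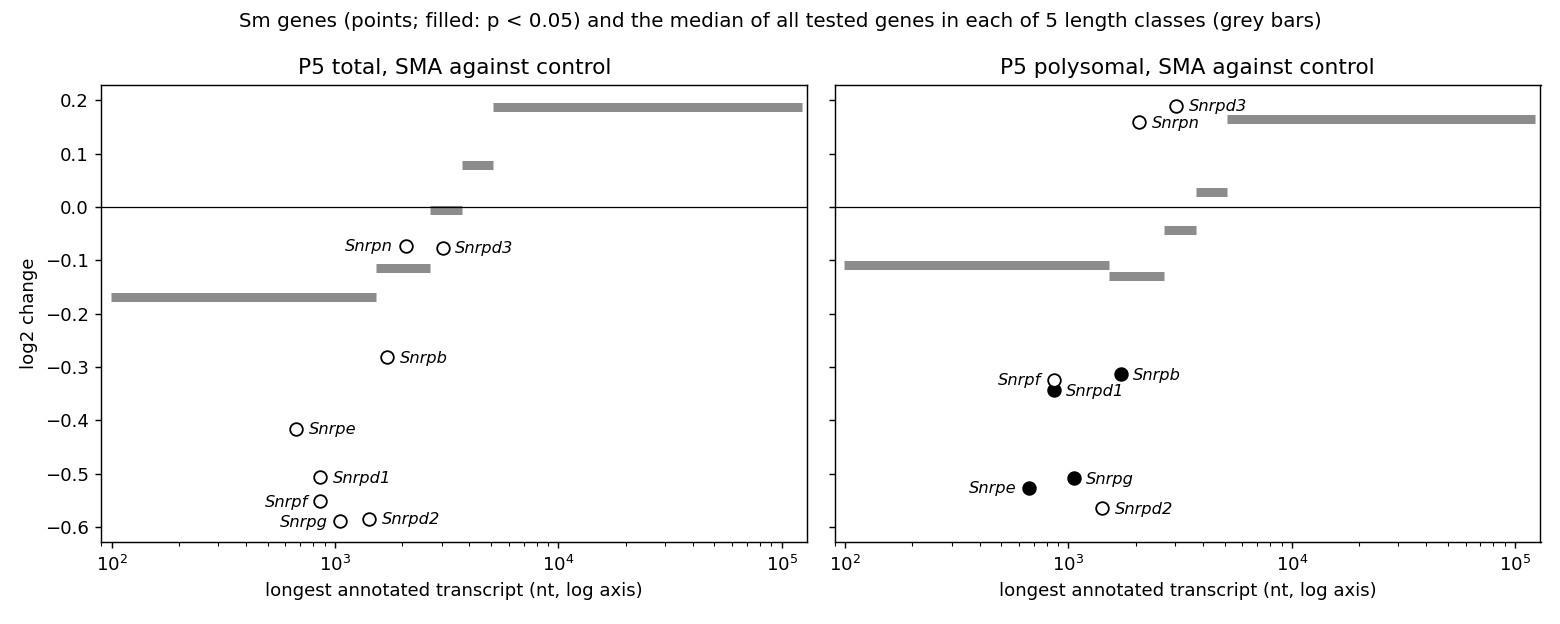
log2 change in SMA against control at day 5 (vertical axis) by the length of the longest annotated transcript in nt (horizontal log axis), for the 8 Sm genes (points, filled where the limma p was under 0.05) and for the medians of the 5 length classes of all tested genes (grey bars). The members with transcripts of 1711 nt or less lie below the bar of their class in both panels, while Snrpn and Snrpd3, the members with the longest transcripts, lie close to their bars in total RNA and above them on polysomes.

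At the late-symptomatic stage the early difference was not seen. In total RNA all 8 members had a log2 change above 0, as 49.1% of tested genes did, with a median log2 change of 0.07 against 0 for all tested genes. Snrpn was the single member called, where 9.54% of tested genes were called and 4.84% were called higher. It was 319, 311 and 288 FPKM in controls, compared with 341, 324 and 354 FPKM in SMA, so that every SMA library was above every control library, as for 7.63% of tested genes (0.15 ± 0.06, limma, adjusted p = 0.520, where 0.111% of tested genes passed after adjustment). The call was lost in 4 of the 6 fits that left out a library.

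Snrpb was next to it, at 55.3, 52.1 and 61.2 FPKM in controls, compared with 61.6, 63.1 and 63.7 FPKM in SMA total RNA (0.16 ± 0.06, limma, adjusted p = 0.524). Snrpd1 showed the smallest difference, at 97.8, 89.5 and 95.9 FPKM in controls, compared with 87.1, 101 and 96.4 FPKM in SMA (0.01 ± 0.07). The other 5 members lay between 0.02 (Snrpd2) and 0.15 (Snrpd3), and their genotypes overlapped. For Snrpg, which had the most negative change at day 5 in total RNA, the libraries were 379, 315 and 402 FPKM in controls, compared with 349, 386 and 402 FPKM in SMA.

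In polysomal RNA at day 7 no member was called by limma at an unadjusted p of 0.05 or after adjustment, where 10.7% and 0.0918% of tested genes were called. After scaling to equal medians, with the length correction, in 1 model over all libraries and in 4 of the 6 fits that left out a library, 1 member was called. Snrpb was the highest, at 69.7, 56.4 and 73.3 FPKM in controls, compared with 77.6, 83.6 and 77.8 FPKM in SMA, with no overlap between genotypes, as for 7.86% of tested genes in that direction (0.27 ± 0.11, limma, adjusted p = 0.470). Snrpf was the lowest, at 19.7, 28.8 and 32.9 FPKM in controls, compared with 26.7, 20.0 and 21.5 FPKM in SMA (-0.23 ± 0.22). The median of the 8 was 0.04. Snrpn was 343, 342 and 331 FPKM in controls, compared with 381, 337 and 381 FPKM in SMA (0.11 ± 0.07).

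The difference between the stages was itself tested, as the genotype effect at day 7 minus that at day 5. In total RNA Snrpb, Snrpe and Snrpg were called, all with a higher SMA value relative to control at day 7, where 10.1% of tested genes were called and 4.55% were called in that direction. The median over the 8 was 0.51, and all 8 were positive, as 47.6% of tested genes were. The lowest adjusted p of the 8 was 0.486, where 0.125% of tested genes passed after adjustment, and leaving out SMA total replicate 1 of day 5 lowered the median to 0.24. The calls depended on several libraries. None was called without control replicate 2 or SMA replicate 3 of day 7. The count of calls also changed when any day 5 library was left out, which leaves 1 library in its group. When 1 library at a time was left out, the median ran from 0.24 without SMA replicate 1 of day 5 to 0.78 without SMA replicate 2 of day 5. Snrpb lost its call in 5, Snrpe in 6 and Snrpg in 7 of these 10 fits.

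In polysomal RNA 5 of 8 were called, again all positive: Snrpb, Snrpd1, Snrpd2, Snrpe and Snrpg, where 13.7% of tested genes were called and 6.81% in that direction. Their adjusted p-values lay between 0.279 and 0.337, where 0.597% of tested genes passed. The median over the 8 was 0.44. Snrpb, Snrpd2 and Snrpg kept the call in each of the 10 fits that left out a library and with the length correction, whereas the calls for Snrpd1 and Snrpe were lost with the correction, under which the median was 0.27. After quantile normalization 2 of the 5 were called, and with the length correction and the replicate number as a block together, none was. Snrpn and Snrpd3 were the members with a negative value on polysomes, at -0.05 ± 0.10 and -0.14 ± 0.28.

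Translational efficiency was taken as the polysomal level relative to the total level, and its change as the difference of that ratio between genotypes. At day 5 0 of 8 members were called by limma at an unadjusted p of 0.05, where 2.32% of tested genes were called, and their median log2 change was 0.12, with -0.20 to 0.35 when 1 library at a time was left out. The median was -0.20 without SMA total replicate 1 and 0.35 without SMA total replicate 2, fits that leave 1 SMA total library. The count of called members changed without SMA total replicate 2 and without control polysomal replicate 2, which also leaves 1 library in a group. The values ran from -0.11 for Snrpe to 0.27 for Snrpd3, with standard errors of 0.13 to 0.53, so changes of the size seen in the levels themselves could not have been resolved for most members. At day 7 0 of 8 were called, where 2.07% of tested genes were, the median was -0.03 and the standard errors were 0.09 to 0.26. Leaving out 1 library at a time gave medians of -0.07 to 0.02, with 254 to 753 of all tested genes called. In these fits 1 member was called without control polysomal replicate 1. Snrpf had the largest value, at -0.29 ± 0.26. With same-numbered total and polysomal libraries as a block, 0 of 8 were again called at day 7, where 4.32% of tested genes were. After adjustment 0 of 8 were called at either stage, where 0.617% of tested genes at day 5 and 0.0394% at day 7 were.

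In control brains 3 of the 8 Sm mRNAs were called higher in the polysomal fraction than in the total at each stage. At day 5 Snrpb, Snrpd1 and Snrpd2 were called higher on polysomes, where 25.9% of tested genes were called and 12.3% were called higher. The median was 0.37 against 0.02 for all tested genes. Snrpd2 rose from 273 and 277 FPKM in total RNA to 465 and 352 FPKM on polysomes (0.56 ± 0.18, limma, adjusted p = 0.186). Snrpb (0.43 ± 0.11, limma, adjusted p = 0.147) and Snrpd1 (0.43 ± 0.10, limma, adjusted p = 0.136) rose by nearly the same amount. No adjusted p was below 0.135, where 1.32% of tested genes passed after adjustment. With the replicate number as a block, 2 of the 8 were called in place of 3. Without control total replicate 1 none of the calls was kept, and without control total replicate 2 a single one was.

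At day 7 Snrpd1, Snrpd3 and Snrpn were called higher on polysomes, where 25.3% of tested genes were called and 14.8% were called higher, with a median of 0.25 against 0.05. Snrpd1 was the member called at both stages (0.26 ± 0.09 at day 7, limma, adjusted p = 0.168). Snrpd3 went from 16.9, 17.4 and 23.7 FPKM in total RNA to 23.8, 25.3 and 25.1 FPKM on polysomes (0.37 ± 0.14, limma, adjusted p = 0.187), and Snrpn from 319, 311 and 288 to 343, 342 and 331 FPKM (0.15 ± 0.05, limma, adjusted p = 0.172). Each of these 3 calls was lost in 5 of the 6 fits that left out a library, and no adjusted p was below 0.167, where 7.12% of tested genes passed after adjustment.

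At day 7 same-numbered total and polysomal libraries deviated together, and with the number as a block 5 members were called in place of 3, where 29.1% of tested genes were called and 17.4% were called higher. Snrpb (0.24 ± 0.06, limma, adjusted p = 0.116) and Snrpd2 (0.28 ± 0.08, limma, adjusted p = 0.147) were then called higher beside Snrpd3 and Snrpn, and Snrpg was called lower. The call for Snrpd1 was lost (limma, adjusted p = 0.211). None of the 8 passed after adjustment, where 2.85% of tested genes did.

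Snrpg was the exception among the 8, with a lower value on polysomes at both stages. In day 5 control brains it was 289 and 272 FPKM in total and 256 and 252 FPKM in polysomal RNA (-0.14 ± 0.08, limma, adjusted p = 0.344). At day 7 it was 379, 315 and 402 FPKM in total and 292, 264 and 326 FPKM in polysomal RNA (-0.31 ± 0.13, limma, adjusted p = 0.207), with the values of the fractions overlapping. Neither was called in the fit without pairs. Within the 3 same-numbered pairs of day 7 the polysomal value was lower in each, by -0.38, -0.25 and -0.30 on the log2 scale, and with the block the change was called (-0.31 ± 0.04, limma, adjusted p = 0.0668).

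Between the stages in control brains Sm genes changed in opposite directions. From day 5 to day 7 in total RNA, Snrpn, Snrpg and Snrpd1 rose and Snrpd2 and Snrpb fell, 5 of 8, where 40.3% of tested genes were called, 20.1% in each direction. After adjustment over all tested genes Snrpn (adjusted p = 0.0262) and Snrpd2 (adjusted p = 0.0473) were still called, where 21.2% of tested genes were. On polysomes Snrpn rose and Snrpd2 and Snrpb fell, where 42.0% of tested genes were called, 20.7% higher and 21.4% lower, and Snrpn (adjusted p = 0.0249) and Snrpd2 (adjusted p = 0.0386) again passed after adjustment, as 20.6% of tested genes did.

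Snrpn rose from 237 and 235 FPKM to 319, 311 and 288 FPKM in control total RNA (0.37 ± 0.06) and from 235 and 243 FPKM to 343, 342 and 331 FPKM on polysomes (0.50 ± 0.07). Snrpd2 fell from 273 and 277 FPKM to 192, 163 and 211 FPKM in total RNA (-0.55 ± 0.12) and from 465 and 352 FPKM to 252, 210 and 225 FPKM on polysomes (-0.83 ± 0.16). Neither gene had overlapping stages in either fraction, as for 58.5% of tested genes in total RNA and 59.8% on polysomes. The call for Snrpn was kept in every fit that left out a library, and that for Snrpd2 in all but the total RNA fit without day 5 replicate 2.

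Snrpb fell from 70.5 and 65.0 FPKM to 55.3, 52.1 and 61.2 FPKM in control total RNA (-0.27 ± 0.09, limma, adjusted p = 0.0931) and from 98.5 and 85.0 FPKM to 69.7, 56.4 and 73.3 FPKM on polysomes (-0.47 ± 0.15, limma, adjusted p = 0.0860). Snrpg rose in total RNA (0.37 ± 0.12, limma, adjusted p = 0.102), as did Snrpd1 (0.29 ± 0.07, limma, adjusted p = 0.0572). On polysomes these genes did not pass, at 0.21 ± 0.12 for Snrpg and 0.12 ± 0.12 for Snrpd1. In total RNA the call for Snrpb was lost in 4 of the 5 fits that left out a library, that for Snrpg in 4 and that for Snrpd1 without day 5 replicate 1. On polysomes that for Snrpb was lost without day 5 replicate 1 and without day 7 replicate 1. Anything that differed between the day 5 and day 7 collections besides age cannot be told apart from it.

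**Figure D4:**
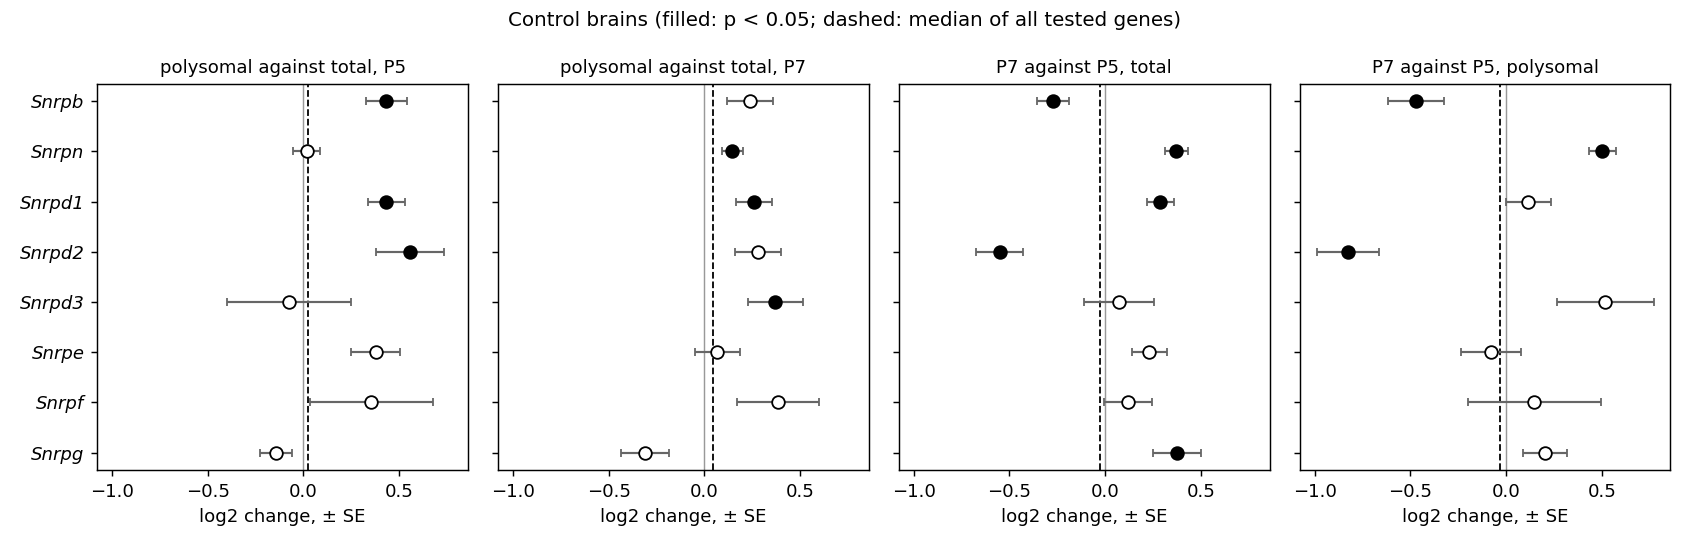
log2 change of each Sm gene in control brains, with its standard error (horizontal axes), for polysomal against total RNA at each stage and for day 7 against day 5 in each fraction. Filled points passed the unadjusted limma threshold of 0.05 and the dashed line is the median of all tested genes. Snrpn lies right and Snrpb and Snrpd2 lie left of the line in both stage panels.

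Because SmN takes the place of SmB in the ring and their mRNAs moved apart, their ratio was followed library by library. In control total RNA Snrpn was 3.37 and 3.61 times Snrpb at day 5 and 5.78, 5.97 and 4.70 times at day 7. On control polysomes the ratio was 2.39 and 2.86 at day 5 and 4.93, 6.06 and 4.51 at day 7. Every day 7 library was above every day 5 library of the same genotype and fraction, SMA included. In controls this separation follows from the rise of Snrpn and the fall of Snrpb given above, and is no further result.

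Between genotypes the ratio differed by less than the replicates did at day 7. In SMA it was 5.54, 5.13 and 5.55 in total and 4.92, 4.03 and 4.90 in polysomal RNA, overlapping the controls. At day 5 it was higher in both SMA libraries than in both control libraries, at 4.31 and 3.77 in total and 3.65 and 3.60 in polysomal RNA. With 2 libraries per group this difference was given no test of its own.

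**Figure D5:**
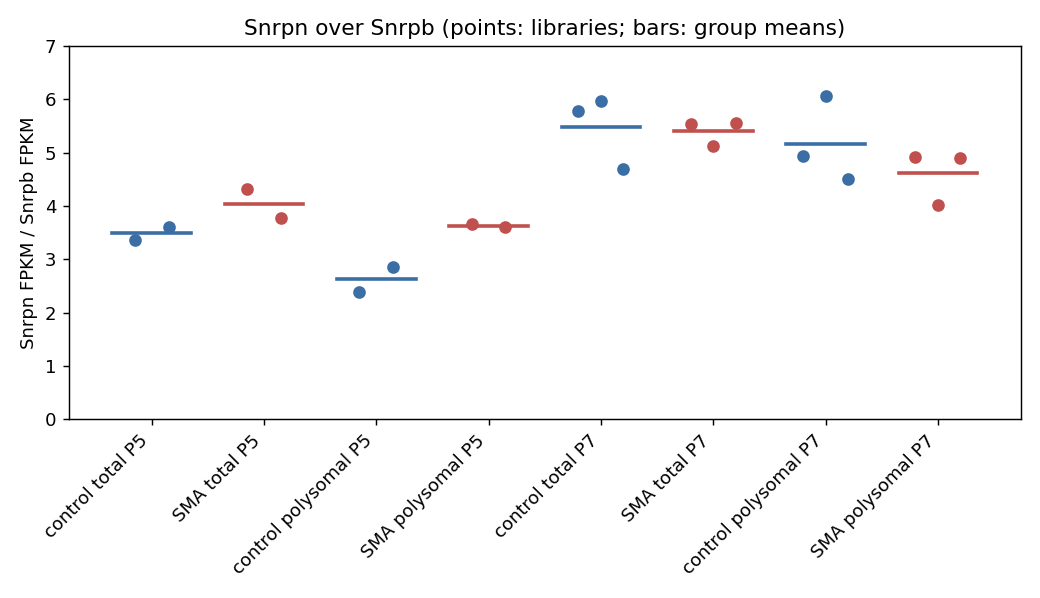
Ratio of Snrpn to Snrpb in FPKM (vertical axis, starting at 0) in the 20 libraries by group, with bars at the group means. The means are 2.62 to 4.04 in the 4 groups of day 5 and 4.61 to 5.48 in the 4 groups of day 7.

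The machinery around the Sm ring was described by lists of its other genes. Of 10 LSm genes, 3 were called lower in SMA at day 5 in total RNA (median -0.35), where 3.89% of all tested genes were, and 5 on polysomes (median -0.37), where 6.82% were, and 9 of 10 were negative in both. The called genes included Lsm2 (-0.56 ± 0.09 in total, limma, adjusted p = 0.551), Lsm7 (-0.61 ± 0.18 on polysomes, limma, adjusted p = 0.392) and Lsm8 (-0.29 ± 0.05 in total, limma, adjusted p = 0.551, and -0.42 ± 0.09 on polysomes, limma, adjusted p = 0.381). At day 7 1 of 10 was called higher in total RNA, where 4.84% of tested genes were, and 0 on polysomes, where 10.7% were called, with medians of 0.08 and 0.04. None of these passed after adjustment. The summed LSm level in total RNA at day 5 was 405 and 402 FPKM in controls, compared with 292 FPKM in SMA replicate 1, the library in which the Sm genes were lowest, and 354 FPKM in SMA replicate 2. The part of that library and of transcript length in the LSm values was not tested. The LSm medians had the sign of the Sm medians in all 4 comparisons, in which both lists come from the same libraries.

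The SMN complex, which assembles the ring, had 9 genes tested. In SMA at day 5 0 were called in total RNA by limma, unadjusted or adjusted (median -0.24), where 8.25% of tested genes were, and on polysomes, where 12.5% were, 1 was called, Gemin7, which was lower (-0.36 ± 0.09, limma, adjusted p = 0.386). At day 7 in total RNA Gemin4 (0.81 ± 0.20, limma, adjusted p = 0.349) and Strap (0.18 ± 0.07, limma, adjusted p = 0.483) were called higher, as 4.84% of tested genes were, and on polysomes 0 were called, where 10.7% of tested genes were. In the control brain Gemin7 was lower on polysomes than in total RNA at both stages, by -0.66 ± 0.07 at day 5 and -0.80 ± 0.07 at day 7 (limma, adjusted p = 0.00699 at day 7). With the block it again passed after adjustment at day 7 (limma, adjusted p = 0.0452).

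The 5 genes for the methylation and chaperoning of Sm proteins, among them Prmt5 and its cofactor Wdr77, which dimethylate arginines in Sm protein tails, gave 0 calls by limma in the 4 comparisons of SMA with control, with medians of -0.11 to 0.05, where 8.25%, 12.5%, 9.54% and 10.7% of tested genes were called. In control brains at day 7 4 of the 5 were called higher on polysomes, where 14.8% of tested genes were, and 0 passed after adjustment. Clns1a, the assembly chaperone pICln, was called at both stages (0.37 ± 0.05 at day 5 and 0.20 ± 0.06 at day 7), but at day 7 not with the block (limma, adjusted p = 0.191), under which the calls for the other 3, Prmt5, Wdr77 and Prmt7, stayed. Of the 8 genes for snRNA export and snRNP import, 0 were called in SMA at day 5 by limma in either fraction, where 8.25% and 12.5% of tested genes were, and 1 was called lower at day 7 in each, where 4.70% of tested genes in total and 5.38% in polysomal RNA were. The nuclear export receptor Xpo1 was the gene called on polysomes (-0.19 ± 0.07, limma, adjusted p = 0.426).

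Proteins that belong to single snRNPs had medians nearer 0 at day 5 than the Sm genes. Of 13 U1 and U2 proteins 1 was called higher and 1 lower at day 5 in total RNA (median -0.02), where 8.25% of tested genes were called, and 0 on polysomes (median -0.01), where 12.5% were. Snrpa1, a protein of the U2 snRNP, was called higher in SMA in 3 of the 4 comparisons, by 0.27 ± 0.07 at day 5 in total, by 0.48 ± 0.06 at day 7 in total and by 0.73 ± 0.10 at day 7 on polysomes (limma, adjusted p = 0.551, 0.154 and 0.161). At day 7 it was the 1 member of the list called higher in each fraction, where 4.84% of tested genes in total and 5.35% in polysomal RNA were, and Snrnp70, of the U1 snRNP, was called lower in total RNA (-0.24 ± 0.07, limma, adjusted p = 0.377). Of 17 proteins of the U4/U6.U5 particle, 2 were called higher at day 5 in each fraction and 1, Txnl4a, lower in total RNA, with medians of -0.06 and -0.11. Of all tested genes 4.36% were called higher in total and 5.65% in polysomal RNA, and 3.89% were called lower in total RNA. After limma's adjustment 0 of the 17 passed. Those called higher at day 5 were Prpf8 (0.73 ± 0.09 in total and 0.65 ± 0.09 on polysomes) and Snrnp200 (0.58 ± 0.08 and 0.52 ± 0.15), the scaffold and the helicase of U5. In the longest length class of tested genes 10.1% were called higher in total and 13.1% in polysomal RNA at day 5. The part of transcript length in the values of Prpf8 and Snrnp200 was not tested. At day 7 1 of the 17 was called higher and 1 lower in total RNA, where 4.84% and 4.70% of tested genes were. On polysomes limma called 0 of the 17 at day 7, where 10.7% of tested genes were called.

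Among the snRNA genes themselves, 9 of the listed ones were in the table and 3 passed the filter. One of the 3, Rnu5g, was listed at 0 in 18 of the 20 libraries and at 49.4 and 82.6 FPKM in 1 control total library of each stage, and was not called. Of those that did not pass, Rnu1a1, Rnu1b2, Rnu2-10, Rnu6 and Rnu7 were listed at 0 in all 20 libraries and Rnu1b1 at 0 in 19. How well these libraries measure snRNAs, Rnu11 and Rnu12 included, was not tested. Rnu12, the U12 RNA of the minor spliceosome, was 1205, 960 and 860 FPKM in controls, compared with 525, 532 and 274 FPKM in SMA total RNA at day 7 (-1.23 ± 0.31, limma, adjusted p = 0.346). Rnu11 was 287, 225 and 207 FPKM in controls, compared with 168, 137 and 104 FPKM in SMA (-0.82 ± 0.22, limma, adjusted p = 0.365). Both fell without overlap between genotypes, as 7.37% of tested genes were lower in this way and 4.70% were called lower. At day 5 the SMA replicates of Rnu12 disagreed, at 1542 and 288 FPKM against 1634 and 812 FPKM in control. Rnu12 was also called lower in SMA on polysomes at day 7, at 88.0, 145 and 105 FPKM against 208, 177 and 163 FPKM in control (-0.72 ± 0.21, limma, adjusted p = 0.358). In control brains Rnu11 and Rnu12, which are not translated, were lower on polysomes than in total RNA, by -1.93 ± 0.27 and -2.46 ± 0.16 at day 7 (with the block, limma, adjusted p = 0.0318 and 0.0164).

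Snrpn lies in an imprinted domain, expressed from the paternal chromosome. Of 6 other tested genes of the domain, 0 were called in SMA by limma at day 5 in either fraction or at day 7 in total RNA, where 8.25%, 12.5% and 9.54% of tested genes were, and 2, Magel2 (0.30 ± 0.12) and Mkrn3 (0.27 ± 0.09), were called higher at day 7 on polysomes (limma, adjusted p = 0.456 and 0.395), as 5.35% of tested genes were. Snurf, upstream of Snrpn on the same transcripts, was 1953 and 2145 FPKM in controls, compared with 1862 and 2242 FPKM in SMA total RNA at day 5, overlapping. From day 5 to day 7 in control total RNA it went to 2379, 2194 and 2116 FPKM (0.12 ± 0.16), which was not called, while Snrpn rose by 0.37.

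Markers of other cell types also differed between the groups. In SMA the erythroid markers had medians of -0.11 in total and -0.49 in polysomal RNA at day 5, and -0.14 and -0.28 at day 7. For astrocyte markers the medians were 0.15 and -0.04, then 0.09 and 0.08. Microglia markers had medians of 0.01 and 0.05, then -0.09 and -0.07. What these 3 lists contributed to the Sm values was not tested. The medians of the cycling and endothelium markers were low at both stages, and the Sm medians were 0.07 and 0.04 at day 7. The 6 cycling cell markers were all negative in SMA at both stages and in both fractions, with medians of -0.67 to -0.74. At day 5 their summed level was 73.9 and 102 FPKM in controls, compared with 52.5 and 60.9 FPKM in SMA total RNA, and 123 and 118 FPKM in controls, compared with 70.1 and 66.8 FPKM in SMA polysomal RNA, with Pcna the most abundant in each. At day 5 1 of 6 was called lower in total RNA, as 3.89% of tested genes were, and 4 of 6 on polysomes, as 6.82% were. On polysomes Cdk1 had the largest change (-1.65 ± 0.09, limma, adjusted p = 0.0305). At day 7 0 of 6 were called by limma in either fraction, unadjusted or adjusted, where 9.54% and 10.7% of tested genes were called, and no marker was at 0 in any library. The summed levels then overlapped, at 50.2, 54.8 and 70.8 FPKM in controls, compared with 45.5, 56.5 and 37.7 FPKM in SMA total RNA. On polysomes they were 54.2, 67.9 and 82.0 FPKM in controls, compared with 56.9, 64.3 and 41.7 FPKM in SMA, also overlapping. In control brains 2 of 6 fell between day 5 and day 7 in total RNA (median -0.75), where 20.1% of tested genes were called lower, and 5 of 6 on polysomes (median -0.86), where 21.4% were. Their part in the Sm values was not tested.

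The 5 endothelium markers were lower in SMA throughout, with 5, 3, 5 and 5 of 5 called in day 5 total, day 5 polysomal, day 7 total and day 7 polysomal RNA, where 3.89%, 6.82%, 4.70% and 5.38% of tested genes were called lower, and medians between -0.63 and -0.68. None passed limma's adjustment. Their summed level at day 5 was 72.4 and 64.6 FPKM in controls, compared with 32.7 and 31.6 FPKM in SMA total RNA, mostly from Cldn5, and 129 and 85.3 FPKM in controls, compared with 47.6 and 37.0 FPKM in SMA polysomal RNA. At day 7 it was 41.5, 47.6 and 54.7 FPKM in controls, compared with 24.6, 28.9 and 24.8 FPKM in SMA total RNA. The part of these cells in the Sm values was not tested. Neuron markers rose from day 5 to day 7 in control brains, 5 of 6 in each fraction, as Snrpn did. Their medians were 0.42 in total RNA and 0.68 on polysomes. The polysomal count includes Tubb3, listed at 0 at day 5. What neurons contributed to the Snrpn values was not tested. Microglia markers also rose, 4 of 5 in total RNA (median 0.63) and 3 of 5 on polysomes (median 0.54). In total RNA 1 of the 5 was called lower, as 20.1% of tested genes were. Of all tested genes 20.1% in total and 20.7% in polysomal RNA were called higher.

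Oligodendrocyte markers changed sign between the stages as the Sm medians did, though 0 of 5 were called by limma, unadjusted or adjusted, in any of these comparisons. Of all tested genes 8.25% and 12.5% were called at day 5, 9.54% and 10.7% at day 7, and 10.1% and 13.7% for the difference between the stages. In SMA at day 5 4 of 5 were negative in each fraction, with medians of -0.06 in total and -0.22 in polysomal RNA, and at day 7 5 of 5 were positive, with medians of 0.25 and 0.30. The genotype effect at day 7 minus that at day 5 had a median of 0.31 in total and 0.46 in polysomal RNA, against 0.51 and 0.44 for the Sm genes. Their summed level, mostly from Mbp, was 153 and 257 FPKM in controls, compared with 130 and 256 FPKM in SMA total RNA at day 5. At day 7 it was 147, 349 and 358 FPKM in controls, compared with 412, 359 and 223 FPKM in SMA total RNA. The genotypes overlapped at both stages, none of the markers was at 0 in any library, and their part in the Sm values was not tested.

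Snrpn and Snrpb followed different genes over the 20 libraries. Among 13100 other tested protein-coding genes, the profiles most like that of Snrpn were those of Pde6d (Pearson r = 0.974), Sst (0.965) and Rab3a (0.965), the latter genes encoding somatostatin and a synaptic vesicle GTPase. Those most like Snrpb were Chchd6 (0.937), Cuedc2 (0.933) and Hdac3 (0.928). For the mean profile of the 8 the closest was Snrpc (0.972), which encodes a protein of the U1 snRNP, then Cstb (0.960) and Spcs1 (0.958). Between Snrpn and Snrpb themselves r was 0.0067, and between Snrpn and Snrpd2 it was -0.31. The points share age, fraction and library, so these values are descriptions.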

How the data were processed

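Total cytoplasmic and polysomal RNA of control and SMA mouse brains was measured in 20 libraries of 8 groups, taken from the sample titles. The authors made the deposited FPKM values from libraries of a stranded, ribosome-depleting kit with TopHat2 2.0.14 on GRCm38.p4 with GENCODE M6, and Cufflinks 2.2.1, according to their methods and processing notes, which state default settings and give no strand setting. Cufflinks divides reads among overlapping genes, no counts are given, and the authors' own tests need reads, so they were not repeated.

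Values were analysed as log2(FPKM + 0.1) with limma 3.58.1 in R 4.3.3 (moderated test with a mean trend, two-sided, each comparison fitted on its own libraries), after a filter of a mean of at least 1 FPKM over all libraries. A fold change on this scale understates that of low genes. A gene was called at the study's threshold, an unadjusted p under 0.05, and Benjamini-Hochberg values over the 15247 tested genes are given beside it. With 2 or 3 libraries per group these p-values rest on few mice. The fit was tested on simulated data. All Sm genes were named, with errors for those called and for the extremes, and other lists by counts, median and up to 4 called genes without overlap between groups. The members, lists and tests were chosen with earlier results of these data known. Transcript lengths and sequences came from GENCODE M21 (98.8% of genes matched). The labels do not say that a replicate number marks 1 mouse. Over the 14335 tested genes above 0 in every library, same-numbered total and polysomal libraries of day 7 deviated together (r of 0.16 to 0.45 in 6 pairs, and 12 of 12 libraries closest to their own number), so the blocked fit is given beside comparisons of the fractions at day 7 where it changes a call. Alternatives covered the pseudocount, filter, scaling, trend, model, length correction, replicate block and leaving out each library.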

Additional observations from a re-analysis of the deposited data

Results flagged for a closer look

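The genotype effect on 8 Sm values differed between the stages by limma's unadjusted test of that difference itself, the effect at day 7 minus that at day 5 on the log2 scale. In total RNA they were Snrpb (0.45 ± 0.16, SE), Snrpe (0.51 ± 0.20) and Snrpg (0.65 ± 0.26). On polysomes they were Snrpb (0.58 ± 0.17), Snrpd1 (0.38 ± 0.14), Snrpd2 (0.61 ± 0.19), Snrpe (0.51 ± 0.18) and Snrpg (0.55 ± 0.15). None passed limma's adjustment over all tested genes, with adjusted p-values of 0.486 in total RNA and 0.279 to 0.337 on polysomes. The same difference of effects had a median of 0.22 in the shortest of 5 length classes of tested genes and -0.20 in the longest in total RNA, and of 0.17 and -0.18 on polysomes. The part of length in the Sm values was not tested beyond the length correction. No library was tested as an outlier.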

How the results depend on the processing

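The median log2 change of the 8 Sm genes kept its value within 1 SD of the library medians under 192 of 212 alternatives, and none turned the sign of a called gene, of which 349 of 496 fits kept the call. That SD was 0.020 for polysomal against total RNA in day 5 controls and 0.27 for SMA against control in day 5 total RNA. A kept value therefore allows larger shifts where the libraries differed more. With the length correction, alone or with the replicate block, the median was -0.17 for day 5 SMA against control on polysomes, 0.34 for polysomal against total RNA in day 5 controls, and 0.28 in total and 0.27 in polysomal RNA for the difference between the stages. Scaling to equal medians gave 0.42, and quantile normalization 0.31, for polysomal against total RNA in day 5 controls. Leaving out each library in turn gave medians of -0.73 to -0.14 for day 5 total RNA (-0.14 without SMA replicate 1), -0.42 to -0.32 for day 5 polysomal RNA, -0.20 to 0.35 for the day 5 change in translational efficiency, whose sign was thus set by which SMA total library was left out, 0.24 to 0.36 for polysomal against total RNA in day 5 controls, and 0.24 to 0.78 for the difference between the stages in total RNA. In day 5 total RNA 0 Sm genes were called, against 5 in 1 model over all libraries, where 3013 in place of 1258 of all tested genes were called. That count also changed without SMA replicate 2. The count of 0 for the day 5 change in translational efficiency changed without SMA total replicate 2 and without control polysomal replicate 2. Each of these fits leaves 1 library in a group. In day 5 polysomal RNA 4 were called, against 2 with the length correction and 0 without either SMA library. For the difference between the stages 3 were called in total RNA, against 0 after quantile normalization and 1 with the length correction, and 5 on polysomes, against 2 and 3, and 0 in both with the length correction and the replicate block together. In total RNA the count for that difference also changed when any day 5 library was left out, which leaves 1 library in its group. Leaving out each day 7 library in turn gave 0 to 3 calls in total RNA and 4 to 5 on polysomes for that difference. It gave 0 to 1 for day 7 polysomal RNA and 0 to 1 for the day 7 change in translational efficiency. The pairing of day 7 total and polysomal libraries by number depended on the genes used: over all tested genes, those listed at 0 in some library included, their r was -0.01 to 0.11 and 6 of 12 correlated best with their own number. Control and SMA libraries of 1 number (r of -0.14 to 0.10 over genes above 0) share only the number. With the replicate block the medians were -0.46 and -0.33 at day 5 and 0.07 and 0.04 at day 7 in total and polysomal RNA, 3 Sm genes were called in day 5 polysomal RNA, 0 in day 7 total RNA and 5 in place of 3 for polysomal against total RNA in day 7 controls. FPKM values hide the depth, so what it limits could not be computed.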
